A study of Mus musculus with 67 samples.

Results

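The subunits of Polycomb repressive complex 2 (PRC2) were followed in mouse intestinal organoids grown with and without EPZ6438, an inhibitor of the PRC2 enzyme EZH2, and separately in crypts of irradiated mice. The 10 genes were chosen by name from a bulk RNA-seq table of 29579 genes: Ezh1, Ezh2, Eed, Suz12, Rbbp4, Rbbp7, Mtf2, Phf1, Phf19 and Jarid2. All 10 were found. The rule goes by gene name and uses no measured value.

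The study set a regeneration-like organoid culture beside conventional organoids, and asked what each medium component does to the cells. The culture, called 8C, contained LDN193189, GSK-3 Inhibitor XV, Pexmetinib, valproic acid (VPA, a histone deacetylase inhibitor, 500 µM), EPZ6438 (2 µM), bFGF, EGF and medium conditioned with R-Spondin 1. Organoids were measured in 49 libraries. There were 7 libraries of 8C, 7 without EPZ6438 (8C -E), 6 without VPA (8C -V) and 7 with neither (8C -VE). The ENR medium (EGF, Noggin and R-Spondin 1) had 7 libraries, and ENR with VPA and EPZ6438 (ENR +VE, doses not given in the labels) had 3. A further 3 libraries each came from 8C without bFGF, EGF, GSK-3 inhibitor (8C -GSK3i) or Pexmetinib (8C -Pex), all of which still held both VPA and EPZ6438. Crypts of the mouse small intestine gave 18 libraries, 2 in each of 9 groups. These were unirradiated crypts (Normal), and crypts 1, 2, 3 and 5 days after irradiation from mice without the drugs (IR) or given VPA and EPZ6438 by mouth (IR +VE). Per the methods, mice were 6 to 12 weeks old for crypt isolation and organoid culture, and those irradiated were females of 8 weeks. C57BL/6 and Lgr5 reporter mice were both in use. The study's legends count mice as the replicates of its organoid and crypt profiles. The labels tie no single library to a mouse, a strain or a culture, and organoid groups hold up to 7 libraries, so some libraries may share an animal and each p-value measures the spread between these libraries.

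PRC2 places methyl groups on lysine 27 of histone H3, a mark of silenced genes. EZH2, or its relative EZH1, is the enzyme and works only when bound to EED, which reads the mark, and SUZ12, which holds the complex together. RBBP4 and RBBP7 are histone-binding partners that PRC2 shares with other chromatin complexes. The Polycomb-like proteins PHF1, MTF2 and PHF19 define one form of the complex and bring it to CpG-rich DNA, while JARID2 belongs to another form. EPZ6438 blocks the enzyme's activity. The levels below are of RNA, and measure the transcripts of each subunit but neither its protein nor the histone mark.

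In the GENCODE M21 annotation of GRCm38, Ezh2 lies on the minus strand of chromosome 6 (chr6:47530139-47595341), Phf19 on the minus strand of chromosome 2 (chr2:34893757-34914026) and Rbbp7 on the plus strand of chromosome X (chrX:162760402-162779092). All 10 genes are annotated as protein coding. No member shared a run of 100 transcript bases with another member. Of the exon bases of Phf1, 39.3% are shared with genes on the opposite strand, chiefly Cuta, and for Rbbp4 the share is 18.05%. For Ezh1, Phf19 and Jarid2 it is 0. Whether reads were counted by strand is not given in the sources used here, so reads of Phf1 and of Cuta cannot be told apart with certainty.

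The 250 bases before the RefSeq transcript start (GRCm38.p6) are printed for the target of the drug, Ezh2, and for Phf19 and Rbbp7, the members that passed the test in an organoid comparison of the inhibitors. Each is written 5′ to 3′ on the gene's own strand. Capitals mark a match to a core E2F motif (searched on both strands in the form TTCCCGC, in the form TTCGCGC, in the form TTGCCGC and in the form TTGGCGC) or to the cell-cycle homology region TTTGAA (also on both strands). The windows are chr6:47595031-47595280 (minus), chr2:34913977-34914226 (minus) and chrX:162760122-162760371 (plus), in the order below.
Ezh2: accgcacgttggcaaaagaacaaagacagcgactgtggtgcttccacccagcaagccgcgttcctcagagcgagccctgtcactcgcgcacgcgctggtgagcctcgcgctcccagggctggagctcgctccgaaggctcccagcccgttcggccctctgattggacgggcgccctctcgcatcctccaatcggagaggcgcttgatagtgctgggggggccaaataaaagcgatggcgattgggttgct
Phf19: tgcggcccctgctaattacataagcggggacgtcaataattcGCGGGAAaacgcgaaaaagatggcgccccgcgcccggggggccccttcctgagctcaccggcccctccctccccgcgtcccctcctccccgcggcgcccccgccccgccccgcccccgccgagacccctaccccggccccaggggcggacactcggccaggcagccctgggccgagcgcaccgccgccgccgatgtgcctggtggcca
Rbbp7: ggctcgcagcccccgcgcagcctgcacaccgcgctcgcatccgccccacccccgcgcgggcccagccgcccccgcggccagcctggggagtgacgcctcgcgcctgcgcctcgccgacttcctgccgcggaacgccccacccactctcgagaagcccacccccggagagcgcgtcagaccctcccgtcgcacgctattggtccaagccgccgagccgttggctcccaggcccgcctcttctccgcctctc
Phf19 held 1 E2F match, 208 bases before the start, and the windows of Ezh2 and Rbbp7 held none of these letters. Over all 10 members, which have 12 such windows, 3 genes (Phf19, Rbbp4 and Suz12) held an E2F match, as did 7.89% of 32851 promoters of the same length. The 2 matches of Rbbp4 overlap each other. The TTTGAA motif was found in Eed, Mtf2 and Suz12, and in 16% of all promoters. The 3 printed windows were rich in G and C, with 63.6% for Ezh2, 75.2% for Phf19 and 76.4% for Rbbp7, against a median of 52.4% over all promoters.

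All 10 subunits were expressed in every organoid library. On the TPM scale, which is per transcript length, the histone-binding partner Rbbp7 was the highest, with a mean of 504 TPM over the 10 conditions and a range of 325 to 674 over the 49 libraries. Rbbp4 followed at 109 TPM (63.2 to 144), then the scaffold Suz12 at 91.8 (47.8 to 151) and Eed at 59.5 (43.2 to 80.5). The enzyme Ezh2 averaged 42.0 TPM (25.4 to 65.6) and its relative Ezh1 17.0 (10.9 to 26.2), so Ezh2 was on average the more abundant of the pair. Jarid2 stood at 19.5 TPM (10.7 to 28.6). The Polycomb-like genes were the lowest, with Mtf2 at 14.0 (5.81 to 27.1), Phf19 at 10.0 (4.69 to 14.3) and Phf1 at 8.56 (5.47 to 17.7). Among neighbours in this order, only Rbbp7 and Rbbp4 had ranges that did not overlap.

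**Figure D1:**
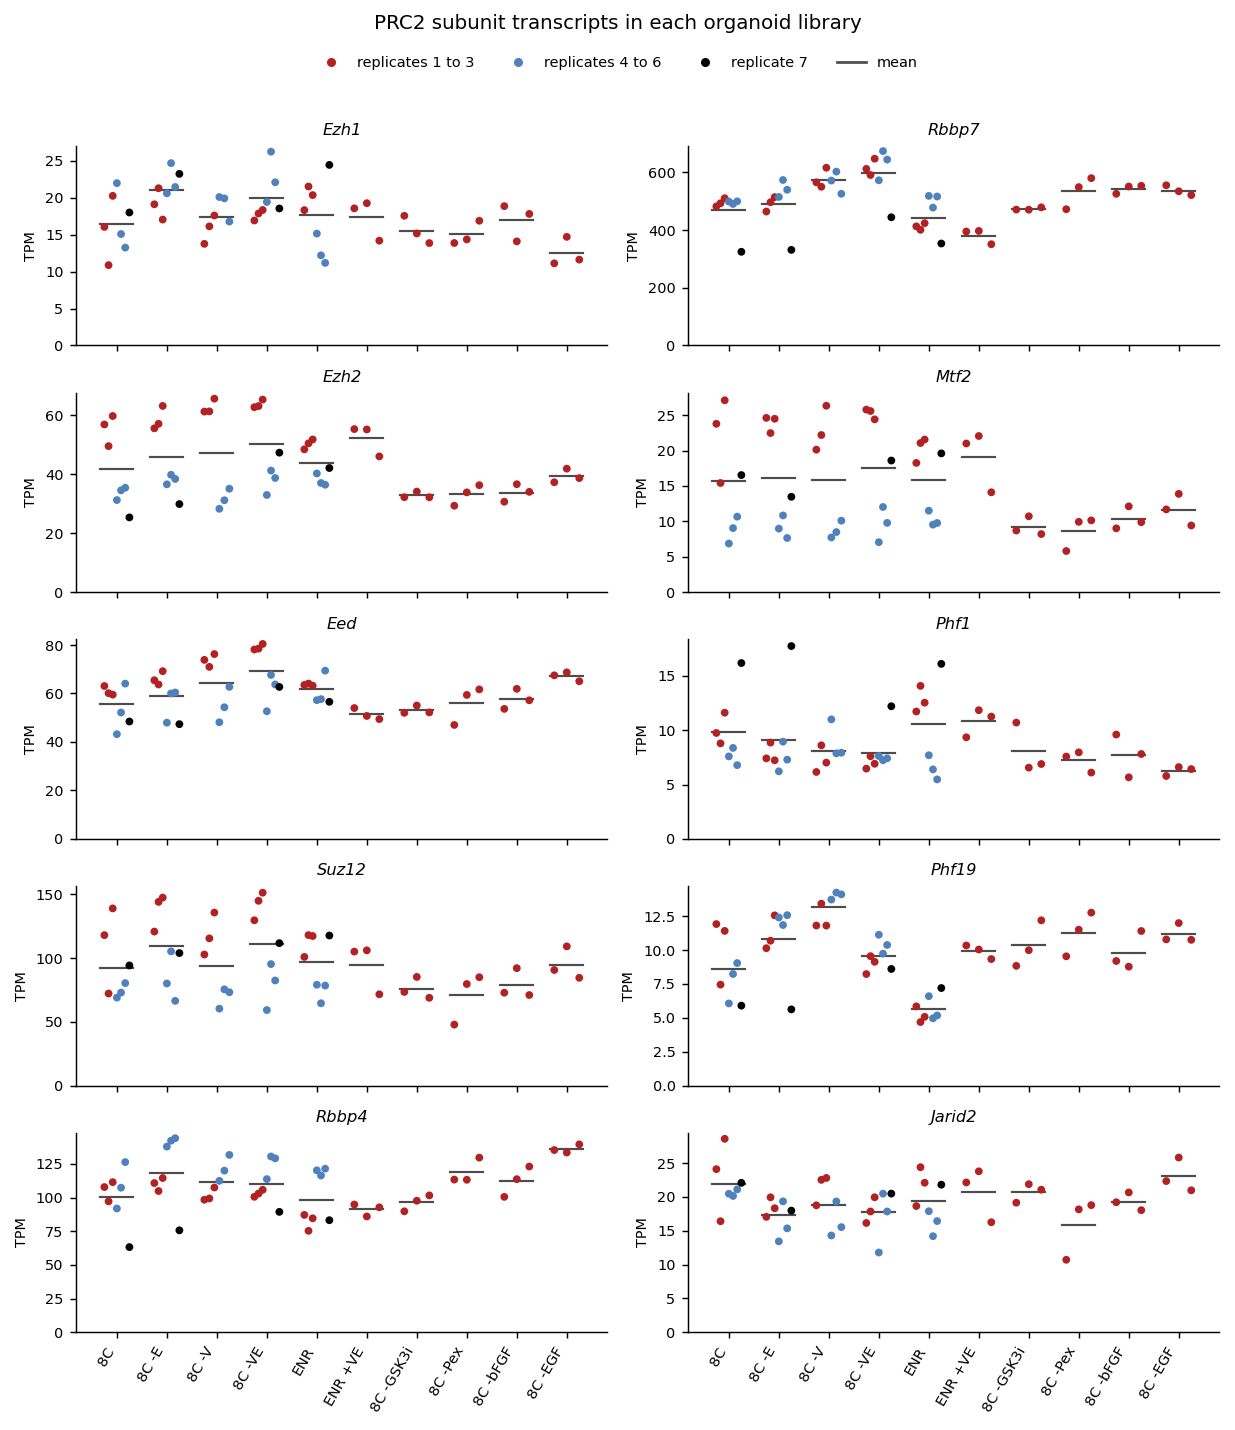
Level of each PRC2 subunit in each organoid library, in TPM on a linear axis from 0 that is scaled separately for each gene, with 1 point per library colored by replicate number and a bar at the mean of each culture condition. Rbbp7 (325 to 674 TPM) lies above every other subunit in all 49 libraries, and Phf19 has the widest span of condition means taken as a fold, which is 2.34-fold, from 5.65 TPM in ENR to 13.2 TPM in 8C -V.

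The condition means of Phf19 spanned 2.34-fold, from 5.65 TPM in ENR to 13.2 in 8C -V, and those of Mtf2 2.21-fold. Eed, the reader of the mark, spanned 1.35-fold, from 51.4 TPM in ENR +VE to 69.1 in 8C -VE. Depth cannot be read from TPM values and is unknown here. In bulk RNA, fewer cells of a type and less RNA per cell cannot be told apart.

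EPZ6438 without VPA raised a single subunit, Phf19. Its levels were 11.8, 13.4, 11.8, 13.7, 14.3 and 14.1 TPM in the 6 libraries of 8C -V, and 8.23, 9.56, 9.14, 11.1, 9.74, 10.4 and 8.61 TPM in the 7 of 8C -VE. Every library with EPZ6438 was above every library without it. The difference was 0.43 on the log2(TPM + 1) scale (95% confidence interval 0.22 to 0.65; limma with Benjamini-Hochberg adjustment over all genes, adjusted p = 0.0169). This was 1 call among 10 members, where 6.05% of all genes tested were called. With replicates 1 to 3 only Phf19 gave 0.42 (adjusted p = 0.026). It was no longer called with quantile normalization (0.42, adjusted p = 0.11), with replicates 4 to 6 only (0.40, adjusted p = 0.15) or without 8C -V replicate 5 (0.41, adjusted p = 0.0502). The replicate numbers were taken as pairs here. With the pair as a block Phf19 gave 0.41 (adjusted p = 0.00102) and Suz12, the scaffold, -0.22 (adjusted p = 0.0182, limma). That fit called 3436 of 12263 genes. Among the markers, 1 of 4 Paneth, 1 of 4 stem cell and 1 of 4 goblet genes were lower with EPZ6438 and 2 of 4 enteroendocrine genes were higher. The Paneth genes summed to a mean of 3372 TPM in 8C -V and 5687 in 8C -VE, the stem cell genes to 635 and 1548 and the enteroendocrine genes to 1403 and 743. Whether they bear on Phf19 was not tested.

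The drug's own target did not pass the test. Ezh2 ranged from 28.3 to 65.6 TPM in 8C -V, with a median of 48.2, and from 33.0 to 65.3 in 8C -VE, with a median of 47.3. The groups overlapped over most of their range. The limma difference was -0.13, and its 95% confidence interval of -0.64 to 0.38 still allowed a change in either direction. Within pairs of the same number Ezh2 was lower with EPZ6438 in 5 of 6, and with the pair as a block the difference was -0.14 (adjusted p = 0.123, limma). The other enzyme, Ezh1, gave -0.18 (adjusted p = 0.62, limma with Benjamini-Hochberg adjustment). Over all members the median difference was -0.08, beside -0.02 over all genes.

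EPZ6438 in the presence of VPA gave no called subunit. In this comparison of 8C with 8C -E, 6.77% of all genes were called by limma with Benjamini-Hochberg adjustment, and 0 of 10 members. At an unadjusted p under 0.05 there were 2, Ezh1 and Jarid2. Ezh1 ranged from 10.9 to 22.0 TPM in 8C (median 16.1) and from 17.1 to 24.7 in 8C -E (median 21.3), a difference of -0.36 (adjusted p = 0.23). Jarid2 ranged from 16.4 to 28.6 TPM in 8C (median 21.1) and from 13.4 to 20.0 in 8C -E (median 17.99), a difference of 0.31 (adjusted p = 0.24). Both pairs of groups overlapped. Jarid2 was called as higher when the libraries were scaled by quantile normalization (0.32, adjusted p = 0.0239) or to their 75th percentile (0.41, adjusted p = 0.0135). Ezh2 differed by -0.14 (95% confidence interval -0.59 to 0.30), with 25.4 to 59.7 TPM in 8C and 29.9 to 63.2 in 8C -E. The members' median was -0.11, beside -0.02 over all genes.

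Phf19 did not pass the test here. It ranged from 5.90 to 11.9 TPM in 8C, with a median of 8.24, and from 5.62 to 12.6 in 8C -E, with a median of 11.9, so the groups overlapped (-0.31, adjusted p = 0.55, limma). With replicates 4 to 6 only it was called as lower (-0.61, adjusted p = 0.0293). The difference between the effects of EPZ6438 with and without VPA was tested as an interaction over the 4 groups. For Phf19 it was -0.74 (95% confidence interval -1.19 to -0.29), with an unadjusted p of 0.00234 and an adjusted p of 0.19 in limma. No member was called, 1 had an unadjusted p under 0.05, and 0.653% of all genes were called. Phf19 was called in the interaction when all organoid groups shared the fit (-0.74, adjusted p = 0.034), with replicates 4 to 6 only (-1.01, adjusted p = 0.012), with replicates 1 to 6 only (-0.78, adjusted p = 0.029) and without 8C -E replicate 7.

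**Figure D2:**
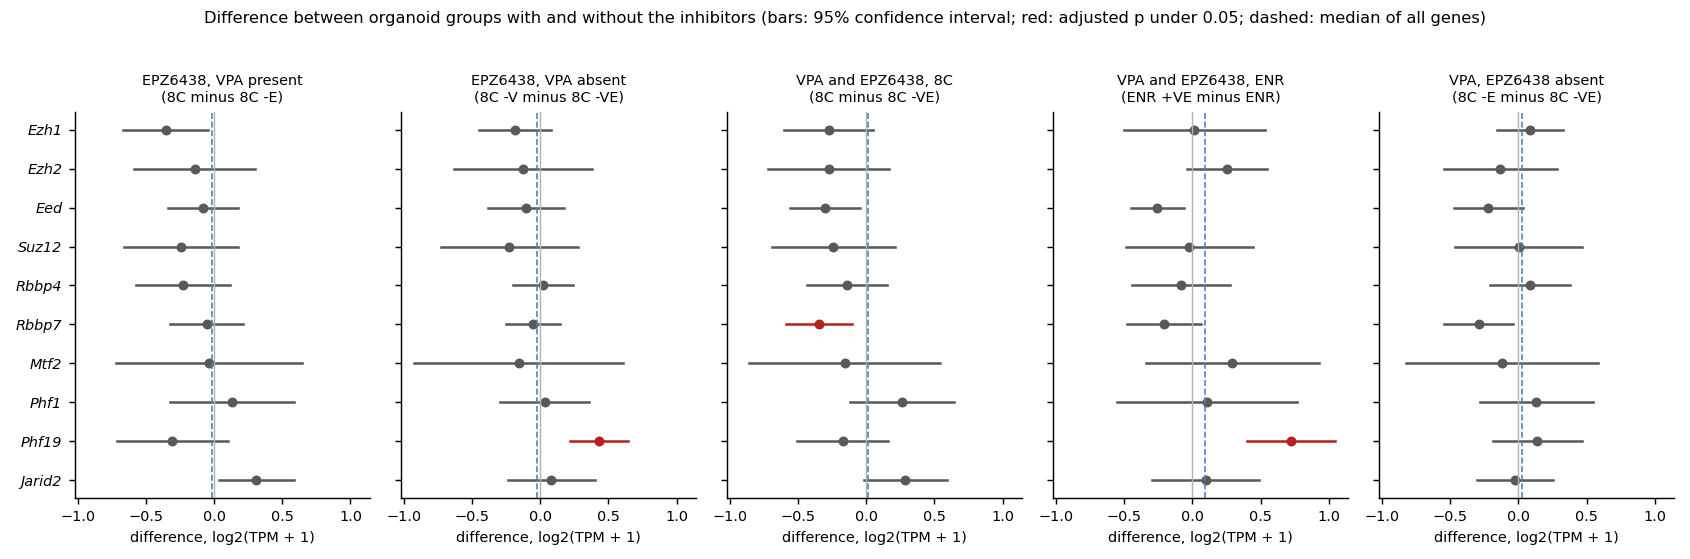
Difference of each PRC2 subunit in log2(TPM + 1) for the organoid comparisons of EPZ6438, VPA and both, with 95% confidence intervals from limma, red where the adjusted p was under 0.05, and a dashed line at the median of all genes. Phf19 is above 0 for EPZ6438 without VPA (0.43) and for both inhibitors in ENR (0.72), and Rbbp7 is below 0 for both inhibitors in 8C (-0.35).

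VPA and EPZ6438 together in the 8C medium lowered Rbbp7. Its levels were 482, 493, 510, 499, 490, 500 and 325 TPM in 8C, and 612, 591, 647, 573, 674, 644 and 444 TPM in 8C -VE. The 325 and the 444 belong to replicate 7 of each group. The groups overlapped only through the 444 of 8C -VE replicate 7, which lay below 6 of the 7 libraries of 8C. The difference was -0.35 (95% confidence interval -0.59 to -0.10; limma with Benjamini-Hochberg adjustment, adjusted p = 0.0386). Rbbp7 was the 1 member called of 10, where 23.4% of all genes were called, so the members' share lay below that of all genes. With both replicates 7 left out the difference was -0.33 (adjusted p = 0.0018). It was -0.32 within replicates 1 to 3 (adjusted p = 0.023) and -0.34 within replicates 4 to 6 (adjusted p = 0.019).

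That call was close to its threshold. It was lost with the libraries scaled to their 75th percentile (-0.25, adjusted p = 0.12), in which Jarid2 was called instead as higher (0.38, adjusted p = 0.027). It was also lost on leaving out 8C replicate 1, 5, 6 or 7 or 8C -VE replicate 1, 2, 3, 5 or 6, one at a time, with Rbbp7 at an adjusted p of 0.0501 to 0.081. Eed ranged from 43.2 to 64.1 TPM in 8C and from 52.7 to 80.5 in 8C -VE, a difference of -0.30 (adjusted p = 0.0859, limma). Ezh2 stood at 41.8 ± 13.4 TPM (SD, n = 7) in 8C and 50.2 ± 13.3 (SD, n = 7) in 8C -VE, a difference of -0.28 (95% confidence interval -0.72 to 0.17). Over the members the median was -0.21, beside 0.01 over all genes.

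In ENR, both inhibitors together went with higher Phf19. The 3 libraries of ENR +VE held 10.3, 10.0 and 9.34 TPM, and the 7 of ENR ranged from 4.69 to 7.20 with a median of 5.17. The groups did not overlap, and the difference was 0.72 (95% confidence interval 0.40 to 1.05; limma with Benjamini-Hochberg adjustment, adjusted p = 0.00427). This was again 1 call of 10, with 20.7% of all genes called. Eed went the other way, with 49.4 to 54.0 TPM in ENR +VE and 56.6 to 69.4 in ENR, groups that did not overlap (-0.26, adjusted p = 0.0661). With quantile normalization Phf19 missed the threshold (0.41, adjusted p = 0.066) and Eed passed it (-0.34, adjusted p = 0.017). Ezh2 held 46.0 to 55.3 TPM in ENR +VE and 36.4 to 51.8 in ENR, an overlap, with a difference of 0.26 (95% confidence interval -0.04 to 0.55). The ENR +VE libraries are numbered 1 to 3. Against ENR replicates 1 to 3 alone (48.4 to 51.8 TPM) the Ezh2 difference was 0.05 (adjusted p = 0.71, limma), while Phf19 gave 0.82 (adjusted p = 0.00149) and Eed was called as lower (-0.30, adjusted p = 0.0153). Cell markers moved in this comparison too, with 2 of 4 Paneth genes and 2 of 12 DNA replication genes lower and 3 of 4 enteroendocrine genes higher. Of 4 stem cell genes 1 was higher and 1 lower, and 1 of 5 epithelial genes was lower. The Paneth genes summed to a mean of 5889 TPM in ENR and 1688 in ENR +VE, and the stem cell genes to 2626 and 1258. What part these play in the Phf19 difference was not tested.

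Phf19 thus passed the test with both inhibitors in ENR and not in 8C (-0.17, adjusted p = 0.48). The difference between the media was tested after the data had been seen, as an interaction over 8C, 8C -VE, ENR +VE and ENR. For Phf19 it was 0.90 in favour of ENR (limma with Benjamini-Hochberg adjustment, adjusted p = 0.072). No member was called, 1 had an unadjusted p under 0.05, and 0.643% of all genes were called. With replicates 1 to 6 only Phf19 was called (adjusted p = 0.044).

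VPA without EPZ6438, the comparison of 8C -E with 8C -VE, called 0 of 10 members and 10.6% of all genes in limma with Benjamini-Hochberg adjustment. At an unadjusted p under 0.05 there was 1 member, Rbbp7. It ranged from 331 to 574 TPM in 8C -E (median 514) and from 444 to 674 in 8C -VE (median 612), and the groups overlapped (-0.29, adjusted p = 0.16). The replicate numbers were taken as pairs here too. With the pair as a block, Rbbp7 was lower with VPA (-0.29, adjusted p = 0.000252), and so was Eed (-0.22, adjusted p = 0.00603). That fit called 4373 of 12238 genes. With VPA 3 of 4 Paneth, 2 of 4 goblet, 2 of 4 enteroendocrine and 1 of 4 enterocyte genes were lower too, and the Paneth sum averaged 2154 TPM in 8C -E and 5687 in 8C -VE. Whether they bear on Rbbp7 and Eed was not tested. The comparison shares the 8C -VE libraries with those of both inhibitors in 8C and of EPZ6438 alone. Set side by side, Rbbp7 gave -0.29 for VPA, -0.05 for EPZ6438 without VPA and -0.35 for both. The -0.05 rests on 8C -VE replicate 7, which has no 8C -V library of its number. With the pair as a block it was -0.12 (adjusted p = 0.0601, limma), and Rbbp7 was lower with EPZ6438 in 6 of 6 pairs.

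Between the media themselves, 8C against ENR, 35.1% of all genes were called but only 1 of 10 subunits. Phf19 was higher in 8C, with 5.90 to 11.9 TPM against 4.69 to 7.20 in ENR, and the groups overlapped (0.50, limma with Benjamini-Hochberg adjustment, adjusted p = 0.0254). This call was lost with quantile normalization (0.15, adjusted p = 0.46) and, with adjusted p-values of 0.0573, 0.0514 and 0.0525, without 8C replicate 1, 8C replicate 3 or ENR replicate 2. With replicates 4 to 6 only Jarid2 was called (0.33, adjusted p = 0.035) and Phf19 was not. Ezh2 gave -0.11 (95% confidence interval -0.49 to 0.27). All 4 Paneth and all 4 enterocyte genes were lower in 8C, as were 3 of 4 goblet genes and 1 of 4 stem cell genes, and 1 goblet and 2 stem cell genes were higher. The Paneth genes summed to a mean of 935 TPM in 8C and 5889 in ENR, and the enterocyte genes to 1804 and 6266. Their part in the difference of Phf19 was not tested.

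Taking single components other than the inhibitors out of 8C gave no called subunit in 4 comparisons of 10 members each, by limma with Benjamini-Hochberg adjustment. The share of all genes called was 0% without the GSK-3 inhibitor, 0.591% without Pexmetinib, 0.00779% without bFGF and 0.514% without EGF. At an unadjusted p under 0.05 the counts of members were 0, 1, 0 and 2 in that order. The 1 was Jarid2 without Pexmetinib (-0.46, adjusted p = 0.37). The 2 were Rbbp4 (0.46, adjusted p = 0.31) and Phf1 (-0.53, adjusted p = 0.37) without EGF. In the 3 libraries of 8C -EGF, Rbbp4 stood at 136 ± 3.12 TPM (SD, n = 3), above all 7 of 8C at 101 ± 19.8 (SD, n = 7).

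Ezh2 varied with the replicate number as well. In each of the 5 conditions with libraries numbered 1 to 6 (8C, 8C -E, 8C -V, 8C -VE and ENR), Ezh2 was higher in every library numbered 1 to 3 than in every one numbered 4 to 6. In 8C it was 49.5 to 59.7 TPM in the first set and 31.2 to 35.4 in the second. In 8C -V it was 61.2 to 65.6 and 28.3 to 35.1. Mtf2, a Polycomb-like subunit, did the same in all 5 conditions, with 15.4 to 27.1 TPM against 6.87 to 10.7 in 8C. Of all genes, 9.27% stood apart in all 5 conditions in one direction. The labels do not say what the numbers mark.

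Of the other subunits, Suz12 was higher in numbers 1 to 3 in 4 conditions, Eed in 3, Phf1 in 2 and Jarid2 in 1. Rbbp4 was lower there in 4 conditions, and Rbbp7 and Phf19 in 2 each. Ezh1 was higher in 1 condition and lower in another. Of all genes, 32.3% stood apart in one direction in at least 4 of the 5 conditions, 50.8% in at least 3, 69.3% in at least 2 and 92.8% in at least 1. The summed level of 10 mitosis genes was also higher in numbers 1 to 3 in all 5 conditions (in 8C, 1030 to 1299 TPM against 579 to 819), while the sum of 12 DNA replication genes was lower there in 8C -E and ENR and overlapped in 3 conditions. Their part in the spread of Ezh2 and Mtf2 was not tested.

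**Figure D3:**
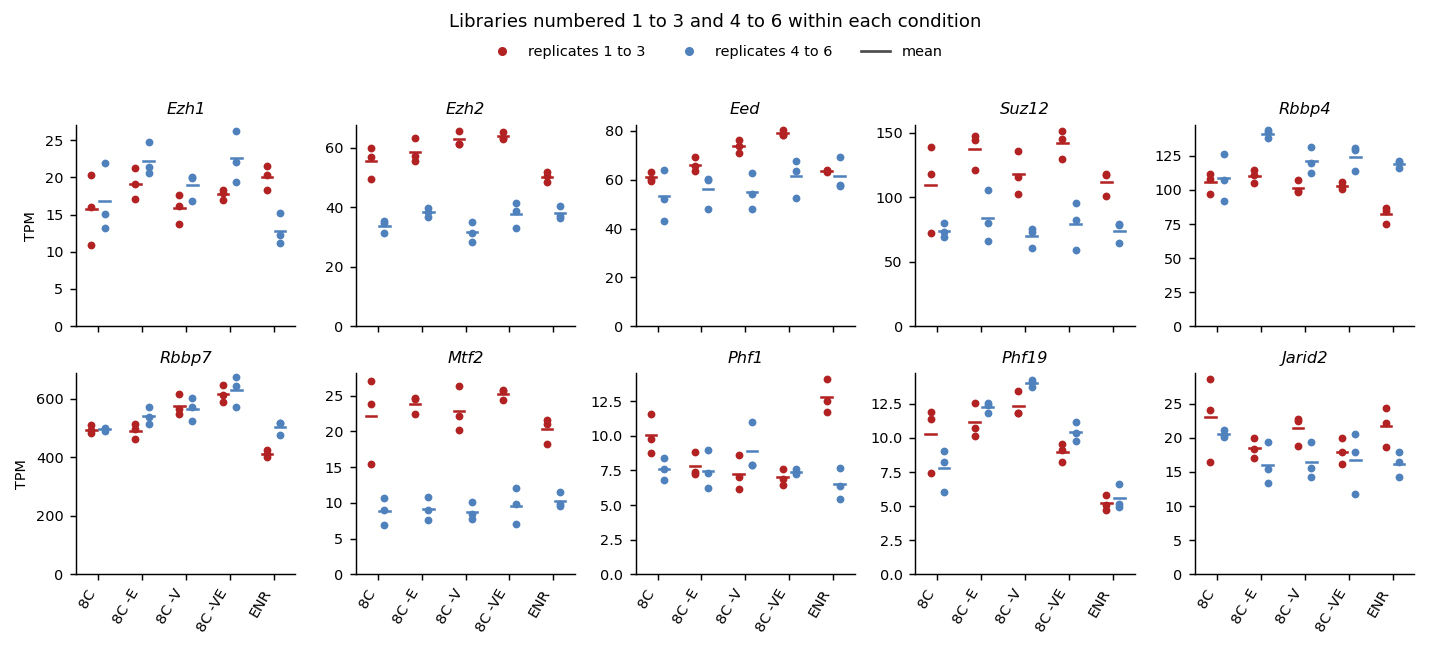
Level of PRC2 subunits in organoid libraries numbered 1 to 3 and 4 to 6 within each of 5 conditions, in TPM on an axis from 0 scaled for each gene, with 1 point per library and a bar at the mean. In all 5 conditions the Ezh2 and Mtf2 points numbered 1 to 3 lie above those numbered 4 to 6, and in 8C the Ezh2 sets are 49.5 to 59.7 and 31.2 to 35.4 TPM.

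The sets bear on the omissions, whose libraries are numbered 1 to 3. In the deposited order, however, they stand among the 8C, ENR, 8C -V, 8C -E and 8C -VE libraries numbered 4 to 6. A shared number therefore does not show a shared set. Set against 8C replicates 1 to 3 alone, Ezh2 was lower without the GSK-3 inhibitor (-0.73), Pexmetinib (-0.72) and bFGF (-0.70), and Mtf2 likewise (-1.15, -1.26 and -1.0). Adjusted p-values in limma were 0.0095 to 0.037. The share of all genes called in these fits is not given here. Without EGF neither was called, with Ezh2 at -0.48 (adjusted p = 0.0587) and Mtf2 at -0.85 (adjusted p = 0.0903). Against 8C replicates 4 to 6 alone, an alternative chosen after the data were seen, no member was called. The Ezh2 differences were then -0.04, -0.03 and 0.00 for the first 3 omissions and 0.21 without EGF, and Mtf2 without EGF gave 0.36. Ezh2 in the 12 omission libraries ran from 29.3 to 41.9 TPM.

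Levels of Ezh2 across the 10 condition means went most closely with Spop, a ubiquitin ligase adaptor (Pearson's r = 0.988), Cenpe, a mitotic motor (0.982), Kif20b, a kinesin (0.9803), Proser3 (0.979) and Uchl5, a deubiquitinase (0.978), among 9901 genes. Among the members the closest to Ezh2 was Mtf2 (0.97). For Ezh1 they were Uevld (0.975), Retreg3 (0.949), Sptbn1, a spectrin (0.943), Mink1, a kinase (0.941), and Gtf2h1, a TFIIH subunit (0.938). Ezh1 and Ezh2 had an r of 0.52. Over the 49 libraries r was lower, from 0.74 (Proser3) to 0.93 (Kif20b) for the genes named with Ezh2. It ran from 0.31 (Gtf2h1) to 0.78 (Retreg3) for those named with Ezh1. The means rest on different replicate numbers in different conditions, so these values are descriptions only.

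PRC1, the other main Polycomb complex, binds the mark and compacts chromatin. With both inhibitors in 8C, 6 of 21 PRC1 genes were called as higher and none as lower, beside 2165 of all 12622 tested genes called higher. Bmi1, a PRC1 RING-finger partner, stood at 62.7 TPM in 8C and 28.5 in 8C -VE (1.05, adjusted p = 0.00126, limma with Benjamini-Hochberg adjustment), and Phc1 at 19.4 and 10.0 (0.88, adjusted p = 0.000928). Of 4 other PRC2 partners in the table, 1 was higher, Epop, an elongin-binding partner, at 106 and 57.4 TPM (0.86, adjusted p = 0.00141). Neither of the 2 H3K27 demethylases was called. In ENR the same inhibitors gave 8 of 21 PRC1 genes as higher, beside 2132 of all 12324 tested genes called higher.

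Of 22 genes that textbooks list as Polycomb targets, 11 were below 1 TPM in all organoid libraries, and only 6 were tested in the comparison of both inhibitors in 8C, of which 4 were higher and 0 lower. Cdkn2a, a cell cycle inhibitor, stood at 67.4 TPM in 8C and 0.847 in 8C -VE (4.64, adjusted p = 1.62e-05, limma). Cdkn1c, another such inhibitor, stood at 22.2 and 5.63 TPM (1.68, adjusted p = 0.000126). With EPZ6438 and no VPA, 5 of 6 tested targets were higher, and 3 of 7 were higher when it was added to VPA. Over all genes, 2165 of 12622 were called higher with both inhibitors in 8C. For EPZ6438 the counts were 642 of 12263 without VPA and 773 of 12655 when added to VPA. A target passes the minimum level more easily where it is high, so these counts are no measure of all 22.

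Markers of cell state moved beside the members in the comparison of 8C with 8C -VE. Of 12 DNA replication genes 7 were lower, with Cdc6 at 15.3 and 27.7 TPM (-0.89) and Mcm5 at 137 and 228 (-0.85), and of 10 mitosis genes 0 were called. All 4 Paneth genes were lower, as were 2 of 4 goblet and 2 of 4 enterocyte genes, and 1 of 4 stem cell genes (Olfm4, -5.93). Their part in the difference of Rbbp7 was not tested.

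Epithelial markers were abundant in both sample sets, at a summed 4989 to 8703 TPM in organoids and 2131 to 6768 in crypts, while the 6 immune genes summed to at most 4.56 TPM in organoids and 44.5 in crypts. Crypts differed from organoids in the share of the table held by mitochondrial genes, 10.6 to 48.4% against 1.52 to 6.64%, so levels are not compared between the sets. In crypts Rbbp7 was again the highest member (25.3 to 132 TPM). Phf19 was at 0.111 to 2.39 TPM, below the minimum of 1 TPM on average, and was not tested, which leaves 9 members.

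Irradiation was followed by a fall of Ezh2. It stood at 19.8 and 22.1 TPM in Normal crypts, 11.7 and 6.55 on day 1, 4.01 and 3.50 on day 2, 3.03 and 4.73 on day 3, and 17.9 and 12.3 on day 5. Each IR library lay below both Normal ones. On day 1 Ezh2 was the 1 member of 9 called, and it was lower (-1.16, limma with Benjamini-Hochberg adjustment, adjusted p = 0.0151), where 12.8% of all genes were called and 10.7% were called lower. With mitochondrial genes removed the day 1 call was lost (-0.91, adjusted p = 0.066). On day 1, 5 of 10 mitosis and 1 of 4 tested immune genes were lower, and 1 of 4 enterocyte genes was higher. The mitosis sum averaged 288 TPM in Normal crypts and 139 on day 1, and the mitochondrial share 15.4% and 30.7%. Whether these bear on Ezh2 was not tested. The 2 libraries of IR day 1 stood apart, with Phf1 at 5.37 and 1.46 TPM and Jarid2 at 4.21 and 1.23. Leaving 1 library in a group assumes that it varies like the others. Without IR day 1 replicate 1, 5 members were called lower, namely Ezh2 (-1.54), Phf1 (-1.47), Jarid2 (-1.29), Suz12 (-0.90) and Ezh1 (-0.86, adjusted p = 0.042, limma). None was called without IR day 1 replicate 2 (Ezh2 -0.79, adjusted p = 0.16) or without Normal replicate 2 (Ezh2 -1.09, adjusted p = 0.0889). On day 2 all 9 were called lower, Ezh2 by the most (-2.21, adjusted p = 3.29e-05), where 52.9% of all genes were called and 46.0% were lower. That count fell to 5 without IR day 2 replicate 2 or Normal replicate 1 and to 4 without Normal replicate 2, and Ezh2, Eed, Suz12 and Rbbp7 were called in each of these.

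**Figure D4:**
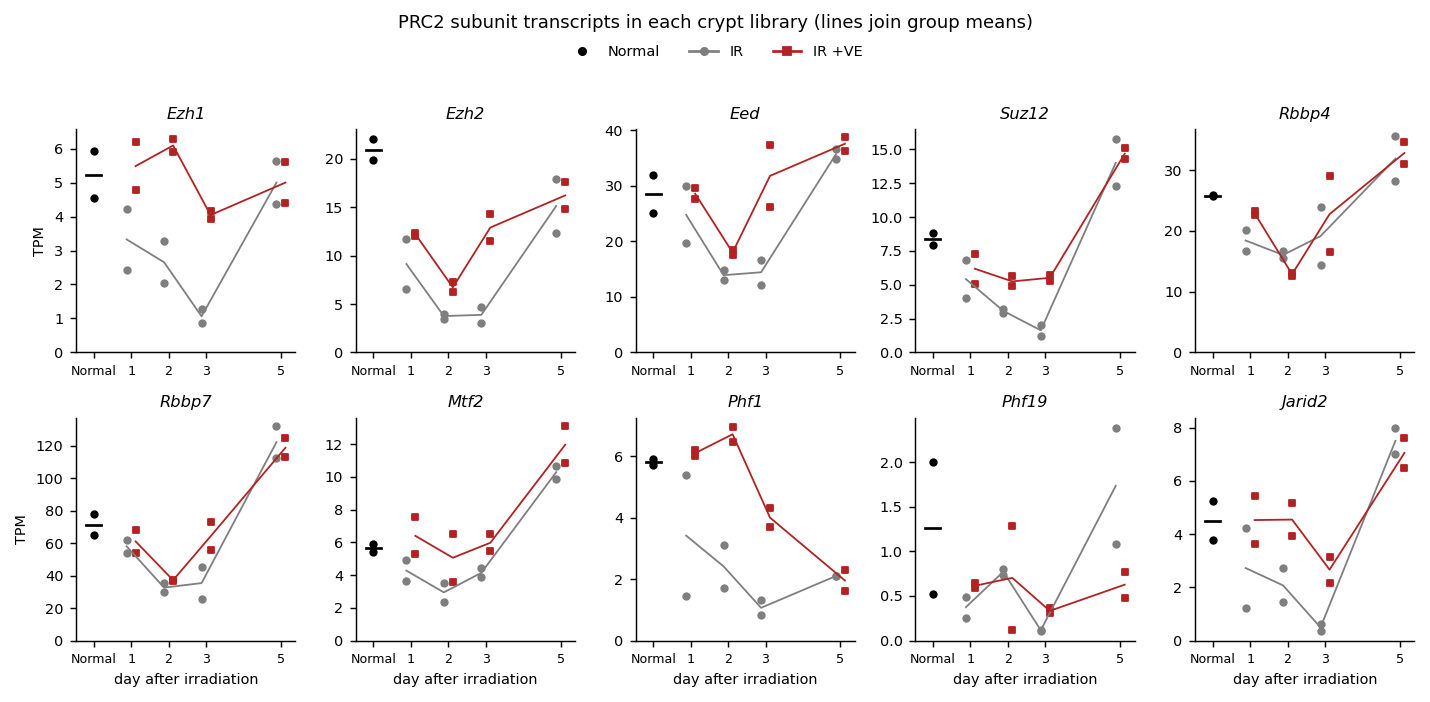
Level of PRC2 subunits in crypts before irradiation and 1, 2, 3 and 5 days after it, without (IR) and with VPA and EPZ6438 (IR +VE), in TPM, with 1 point per library, 2 libraries per group and lines joining group means. Ezh2 falls from 19.8 and 22.1 TPM in Normal crypts to 3.03 and 4.73 on day 3 of IR, beside 11.5 and 14.3 on day 3 of IR +VE.

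Day 3 gave 7 of 9 members as lower, where 74.4% of all genes were called and 70.5% were lower. Suz12 fell from 8.80 and 7.97 TPM in Normal crypts to 1.24 and 2.02 (-1.85, limma with Benjamini-Hochberg adjustment, adjusted p = 2.24e-05). Jarid2 fell from 3.77 and 5.23 to 0.353 and 0.630 (-1.88), and Ezh1 from 4.54 and 5.92 to 0.856 and 1.27 (-1.59). Rbbp4 and Mtf2 were not called. The median over all genes was itself -1.03 on day 3, and -1.59 over the members. Marker genes fell on day 3 as well, with 10 of 10 mitosis, 10 of 12 DNA replication, 4 of 4 enterocyte, 4 of 5 epithelial, 3 of 4 goblet, 3 of 4 enteroendocrine and 3 of 4 tested immune genes called lower. The epithelial sum averaged 4010 TPM in Normal crypts and 2582 on day 3, and the mitosis sum 288 and 89.8. Whether they bear on the members was not tested.

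The scaling decided several of these calls. Under quantile normalization, which brings the all-gene median of day 3 to 0.03, Ezh2 (-0.94), Jarid2 (-0.90), Suz12 (-0.64) and Ezh1 (-0.46) were still called lower, while Mtf2 (0.88, adjusted p = 0.0079) and Rbbp4 (0.62, adjusted p = 0.038) were called higher. Scaling to the 75th percentile also called Mtf2 (0.71) and Rbbp4 (0.77) higher. Eed and Rbbp7, called lower on day 3 as deposited (-0.94 and -1.04), were called under neither scaling. Eed turned to 0.16 with quantile normalization and 0.27 with the 75th percentile, and Rbbp7 went to -0.02 and 0.20. On day 2, quantile normalization left Ezh2 (-1.51), Suz12 (-0.49) and Rbbp7 (-0.57) as lower. Ezh1, Phf1, Mtf2, Rbbp4 and Jarid2 were then called neither in that fit, nor with the 75th percentile, nor with mitochondrial genes removed. The day 2 call of Jarid2 was also lost with a smaller pseudocount, and that of Rbbp4 with eBayes without trend or robust. The mitochondrial share averaged 15.4% of the listed TPM in Normal crypts, 36.3% on day 2 and 43.2% on day 3. The summed mitosis genes averaged 288 TPM in Normal crypts and 50.9 on day 2. Their part in the fall of Ezh2 was not tested.

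By day 5 some subunits were above Normal and 1 was below. Rbbp7 stood at 132 and 112 TPM against 64.7 and 78.2 in Normal crypts (0.77, adjusted p = 0.0305, limma with Benjamini-Hochberg adjustment). Mtf2 stood at 10.7 and 9.88 TPM against 5.38 and 5.87 (0.77, adjusted p = 0.0455). Phf1 was lower, at 2.09 and 2.11 against 5.70 and 5.92 (-1.14, adjusted p = 0.0239), and was also called lower under each of the 3 other scalings. These were 3 of 9 members, with 27.2% of all genes called. Mtf2 was not called under any of the 3 other scalings, and Rbbp7 was not called with the 75th percentile (0.41, adjusted p = 0.13). Ezh2 (-0.47, adjusted p = 0.22) was called lower with quantile normalization (-0.74) and the 75th percentile (-0.79). Exons of Phf1 overlap those of Cuta, which lay between 31.6 and 120 TPM in crypts. No member was called without IR day 5 replicate 1, IR day 5 replicate 2 or Normal replicate 1, and only Rbbp7 without Normal replicate 2, with Phf1 at -1.11 to -1.16 in these 4 fits. Suz12 was called as well without either library of IR day 1. Of the markers, 3 of 4 tested immune and 3 of 4 enteroendocrine genes were lower on day 5, and 4 of 12 DNA replication genes were higher. The immune genes summed to a mean of 38.2 TPM in Normal crypts and 7.10 on day 5. What part these markers play on day 5 was not tested.

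VPA and EPZ6438 in irradiated mice went with higher subunit transcript levels over the 4 days together. The fit of IR +VE against IR with the day as a factor called 7 of 9 members, all higher, where 49.0% of all genes were called and 48.9% were higher. Phf1 gave 0.81, Ezh1 0.72, Ezh2 0.69 (limma with Benjamini-Hochberg adjustment, adjusted p = 0.0136), Jarid2 0.69, Suz12 0.55, Eed 0.43 and Mtf2 0.43. Rbbp4 (0.07) and Rbbp7 (0.28) were not called. Over the members the median was 0.55, beside 0.37 over all genes. All 5 epithelial genes, 3 of 4 tested immune genes, 3 of 12 DNA replication genes and 2 of 10 mitosis genes were called higher in the same fit, and whether they bear on the members was not tested.

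The calls depended on day 3. Without it, an alternative chosen after the data were seen and fitted on fewer libraries, no member was called and 2 genes were called in all. The differences were then 0.66 for Phf1, 0.53 for Ezh1, 0.49 for Jarid2, 0.42 for Mtf2, 0.41 for Ezh2, 0.29 for Suz12 and 0.22 for Eed, with adjusted p-values of 0.11 to 0.19 in limma. Mtf2 thus stayed near its value with day 3, and Ezh2, Suz12 and Eed came out lower. Quantile normalization and scaling to the 75th percentile, which bring the all-gene median to -0.03 and 0.06, also left no member called. In both of these fits 0 genes were called in all. With mitochondrial genes removed 3 members were called, Ezh1 (0.68), Ezh2 (0.59) and Phf1 (0.77), beside 1775 of all genes. Cuta, the overlapping partner of Phf1, gave 0.19 (adjusted p = 0.14).

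By day, the inhibitors gave 0 of 9 members on day 1, 2 on day 2, 7 on day 3 and 0 on day 5, by limma with Benjamini-Hochberg adjustment. The share of all genes called was 0.00926% on day 1 and 0.0185% on day 5, and at an unadjusted p under 0.05 there were 2 members on day 1 and 0 on day 5. On day 2, 14.6% of all genes were called, and 14.6% were called higher, but 0 genes under each of the 3 other scalings. The 2 members were Ezh1, at 5.89 and 6.29 TPM against 3.28 and 2.03 (0.98, adjusted p = 0.0362), and Phf1, at 6.95 and 6.48 against 3.11 and 1.72 (1.21, adjusted p = 0.0379). Neither was called under the 3 other scalings, nor without IR day 2 replicate 2 or either library of IR +VE day 2, and Phf1 was not called without either library of IR +VE day 5. Without either library of IR day 1, Ezh2 and Jarid2 were called beside them, which makes 4 members. On day 1, Phf1 (1.53, adjusted p = 0.00713) and Jarid2 (1.29, adjusted p = 0.0215) were called without IR day 1 replicate 1 in limma.

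On day 3, 52.5% of all genes were called and 52.3% were higher. Ezh2 stood at 11.5 and 14.3 TPM in IR +VE and 3.03 and 4.73 in IR (1.52, adjusted p = 0.000642, limma with Benjamini-Hochberg adjustment). Suz12 stood at 5.28 and 5.75 against 1.24 and 2.02 (1.32), and Ezh1 at 4.15 and 3.94 against 0.856 and 1.27 (1.30). In all of these the groups did not overlap. Jarid2 (1.29), Phf1 (1.28), Eed (1.08) and Rbbp7 (0.89) were called as well, and Mtf2 (0.44) and Rbbp4 (0.23) were not. Ezh2 was called under all 3 other scalings, at 0.62 with quantile normalization, 0.92 with the 75th percentile and 1.41 with mitochondrial genes removed. It was the only member called with quantile normalization. Over all genes these scalings called 2676, 3818 and 4829 in that order.

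Other values moved with the day 3 difference. The mitochondrial share averaged 43.2% in IR and 33.4% in IR +VE, and the summed epithelial markers 2582 and 4372 TPM. The mitosis genes summed to 66.2 and 114 TPM in the 2 libraries of IR and to 112 and 198 in those of IR +VE. The immune genes averaged 21.8 and 30.4 TPM in all. Their part in the difference of Ezh2 was not tested. On day 2 the mitochondrial share averaged 36.3% in IR and 27.7% in IR +VE, and 2 of 5 epithelial genes were called higher. The epithelial sum averaged 4302 and 6516 TPM, and the mitosis sum 50.9 and 45.0. Whether these bear on Ezh1 and Phf1 on day 2 was not tested. On day 5 the Ezh2 levels of 14.8 and 17.6 TPM in IR +VE and 17.9 and 12.3 in IR overlapped (0.11, 95% confidence interval -0.46 to 0.69).

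**Figure D5:**
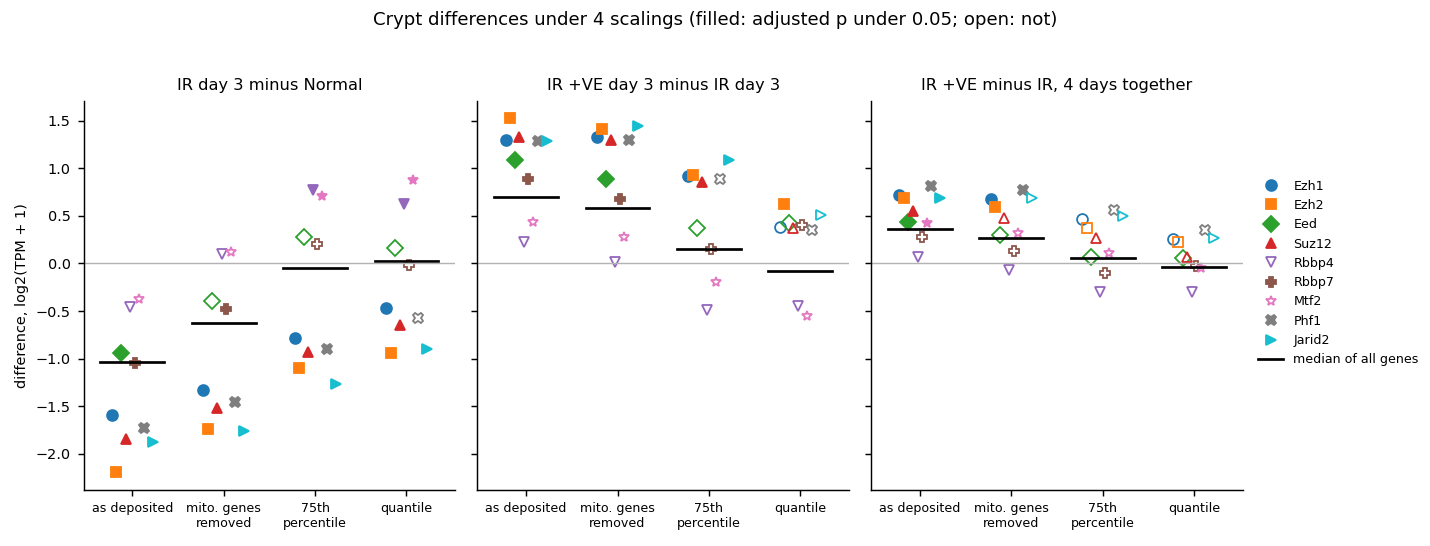
Difference of 9 PRC2 subunits in log2(TPM + 1) between IR day 3 and Normal, between IR +VE and IR on day 3, and between IR +VE and IR over 4 days, under the table as deposited and 3 other scalings, with filled symbols at an adjusted p under 0.05 and a black bar at the median of all genes. Over the 4 days Ezh2 goes from 0.69 as deposited to 0.23 with quantile normalization, and the median of all genes from 0.37 to -0.03.

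Other Polycomb genes were counted in the crypts over the 4 days together. Of 19 tested PRC1 genes 11 were higher, of 4 other PRC2 partners 3, and both H3K27 demethylases, beside the 48.9% of all genes called higher. These calls come from the table as deposited.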

How the data were processed

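Bulk RNA-seq was measured in 49 organoid and 18 crypt libraries. Reads were trimmed with Trimmomatic 0.39, aligned with STAR 2.7.3a to mm10 and counted with featureCounts, per the submitters' processing notes. The authors deposited the values as TPM, which keep no sequencing depth. How counts became TPM is not given in the sources used here. From the deposited TPM, log2(TPM + 1) was fitted with limma 3.58.1 in R 4.3.3 (eBayes with trend and robust) for genes that averaged 1 TPM or more in the fitted libraries. p-values were adjusted by Benjamini-Hochberg over all genes, and a gene was called at an adjusted p under 0.05. Comparisons of 2 groups used only their libraries, crypts by day used all 18, and the inhibitors in crypts used 16 with the day as a factor. A log2 change with this pseudocount understates the change of low genes.

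Every member is named. Of each other list, up to 2 called genes with the largest rise and up to 2 with the largest fall between 8C and 8C -VE are named, where they bear on the members. The 5 genes most like Ezh2 and Ezh1 were taken by Pearson correlation of condition means. The members and lists were chosen with earlier results of these data known. Replicate numbers were taken to pair libraries where each pair's residuals correlated above 0.1. The check compared only libraries of the same number. Libraries of one replicate set may correlate too, so it cannot tell a pair from a shared set. The lowest r was 0.69 over 6 pairs for EPZ6438 without VPA and 0.647 over 7 pairs for VPA without EPZ6438. The fits were tested on simulated data. Figures were drawn with matplotlib 3.10.9. Alternatives covered the scaling, pseudocount, minimum level, a 2-fold minimum, the moderation, a block, subsets of replicates and leaving out each library.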

Additional observations from a re-analysis of the deposited data

Results flagged for a closer look

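In groups of 4 to 10 libraries, 1 library was set far apart from the rest by Dixon's ratio in 6 of 50 combinations of a member and a condition, and all 6 were replicate 7. Chance gives such a value in about 5% of groups. Rbbp7 was low in replicate 7 of 8C (325 TPM, others 482 to 510), of 8C -E (331 TPM, others 464 to 574) and of 8C -VE (444 TPM, others 573 to 674). Phf1 was high in replicate 7 of 8C -E (17.7 TPM, others 6.21 to 8.94) and of 8C -VE (12.2 TPM, others 6.46 to 7.62). Phf19 was low in replicate 7 of 8C -E (5.62 TPM, others 10.1 to 12.6).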

How the results depend on the processing

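The counts of PRC2 members called, with main values in brackets, moved as follows. For EPZ6438 with VPA (0), quantile normalization, the 75th percentile and replicates 4 to 6 each gave 1. For EPZ6438 without VPA (1), quantile normalization, a 2-fold minimum and replicates 4 to 6 gave 0, and the replicate block gave 2. For both inhibitors in 8C (1), a 2-fold minimum and eBayes without trend or robust gave 0, and quantile normalization, the replicate block, all groups in the fit and replicates 1 to 3 gave 2. For both in ENR (1), a 2-fold minimum gave 0, and the replicate block, replicates 1 to 3 and replicates 1 to 6 gave 2. For VPA without EPZ6438 (0), the replicate block and replicates 1 to 3 gave 2, and all groups in the fit and replicates 1 to 6 gave 1. For 8C against ENR (1), quantile normalization and a 2-fold minimum gave 0, and replicates 1 to 3 gave 3. The interaction of VPA and EPZ6438 (0) gave 1 with all groups in the fit, with replicates 4 to 6 and with replicates 1 to 6, and the difference between media (0) gave 1 with replicates 1 to 6. The other omissions (0) gave 6 against 8C replicates 1 to 3. For the inhibitors in crypts (7), quantile normalization, the 75th percentile, a 2-fold minimum and leaving out day 3 gave 0. Mitochondrial genes removed gave 3 and a minimum of 5 TPM gave 4. Quantile normalization and the 75th percentile called 0 of all genes in that comparison. Crypt groups by day (29 calls over 8 comparisons) gave 14 with quantile normalization, 16 with the 75th percentile, 17 with a minimum of 5 TPM, and 19 with a 2-fold minimum and with mitochondrial genes removed. The cause of these moves was not tested.

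Leaving out 1 library at a time gave 0 to 1 for EPZ6438 without VPA (0 without 8C -V replicate 5), 0 to 2 for both in 8C, 1 to 2 for both in ENR (2 without ENR replicate 7), 0 to 1 for VPA without EPZ6438 (1 without 8C -VE replicate 7), 0 to 1 for 8C against ENR, 0 to 1 for the interaction, 0 to 1 for the difference between media, 5 to 7 for the inhibitors in crypts and 21 to 38 for crypts by day. EPZ6438 with VPA and the omissions stayed at 0. Of the called values, Mtf2 in crypts with the inhibitors turned from 0.43 to -0.053 with quantile normalization (adjusted p = 0.80, limma), and Eed and Rbbp7 on day 3 of irradiation turned as given above. Of values not called, quantile normalization turned Rbbp7 (0.28 to -0.03) and Rbbp4 (0.07 to -0.30) over the 4 days with the inhibitors. On day 3 with them it turned Mtf2 (0.44 to -0.55) and Rbbp4 (0.23 to -0.45), and the 75th percentile turned the same values. Others turned in some settings too. Among these, Eed and Rbbp7 reached 0.19 and 0.11 on day 1 of irradiation, and -0.15 and -0.29 on day 2 with the inhibitors. In the blocked fits where the numbers were not taken as pairs, Eed was called beside Rbbp7 in 8C (-0.30, adjusted p = 0.0128, limma). In ENR it was called beside Phf19 (-0.30, adjusted p = 0.0339). Those fits called 4332 of 12622 genes in 8C and 4456 of 12324 in ENR. The block changed no other member's call. Replicates 4 to 6 alone could not be fitted for ENR +VE, and subsets of replicates were not run for crypts. Depth is unknown, and 2 libraries per crypt group limit precision.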
